A study of Mus musculus with 6 samples.

Results

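The keratin genes are described here in obstructed mouse ureters. They were taken as every non-control probe on the array whose gene name is Krt followed by a number, with the keratin-associated Krtap genes left out. This gave 55 genes on 69 probes. Of these, 29 genes were measured, meaning that in 1 group or both a probe stood well above background on each array, and 28 of the 29 did so on all 6 arrays. They stand among 22260 measured genes.

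The groups were labelled Col17a1-KO and Col17a1-WT, both on a C57BL/6N background and 2 months old, with 3 samples in each group. All 6 samples followed unilateral ureteral obstruction, in which the ureter of 1 side is closed so that urine cannot drain. The ureters were taken 4 days later. KO replicate 3 was female and the other 5 samples were male. Col17a1 encodes collagen XVII, a hemidesmosome protein of basal epithelial cells, and the comparison asks which transcripts differ with its genotype. Unobstructed ureters were not analysed here, and the sources used here do not give the deleted stretch of the gene or whether the KO acts in all cells.

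Keratins are intermediate filament proteins of epithelial cells. A filament needs a type I and a type II partner, and each epithelium is known by the pairs that it makes. The urothelium, the lining of the ureter, carries simple keratins (Krt8 and Krt18, Krt7, Krt19, and Krt20 in its surface umbrella cells) and, in its basal cells, Krt5 and Krt14. Other members are known from wounded or stressed epithelium, from stratified epithelium such as epidermis, or from hair and nail.

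Facts on the arrays that touch these values come first. The 75th percentile of signal lay between 144 and 165 units and 35482 to 36567 probes per array were well above background. Values below are log2 signal minus the array's 75th percentile, so 0 is that percentile and a difference of 1 is a 2-fold change. Col17a1, at a probe whose place relative to the deletion is not given, read 0.50, 0.53 and 0.40 in KO ureters, against -2.33, -0.80 and -0.39 in WT ureters, a difference of 1.65 ± 0.48 (SE; limma, adjusted p = 0.457). It was thus not lower in the libraries labelled KO, and a KO direction below means only the label. WT replicate 2 held kidney transcripts: the 6 measured genes of 12 on a kidney tubule and podocyte list averaged -3.63, -3.81 and -3.69 in KO ureters, and -3.55, -1.58 and -3.69 in WT ureters.

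No keratin passed an adjusted p of 0.05 (limma, Benjamini-Hochberg over all 22260 genes), and neither did any other gene, a background of 0%. The lowest adjusted p of a keratin was 0.418 and that of any gene 0.229. At an unadjusted p under 0.05, 12 of the 29 measured keratins were higher in KO ureters and 0 were lower, against 4.35% of all genes higher and 4.71% lower. In 10 keratins all 3 KO values lay above all 3 WT values, and in 1, Krt79, all lay below, against 7.28% and 8.13% of all genes. The median difference of the 29 was 0.49 and that of all genes was -0.0009. With 22 keratins higher and 7 lower, the family leaned to the KO side, where 49.8% of all genes were higher. Without WT replicate 1, 17 of the 29 were higher and the median was 0.38. At that unadjusted p 11 were then higher (6.86% of all genes) and 2 lower (share of all genes not given). Without WT replicate 2, the array with kidney transcripts, 10 keratins were higher at that p (2.91% of all genes) and the median was 0.62. Without WT replicate 3 the median was 0.81, without KO replicate 1 it was 0.63 and without KO replicate 2 it was 0.33. Without the female, KO replicate 3, it was 0.71 with 10 keratins higher at that p (6.10% of all genes).

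**Figure D1:**
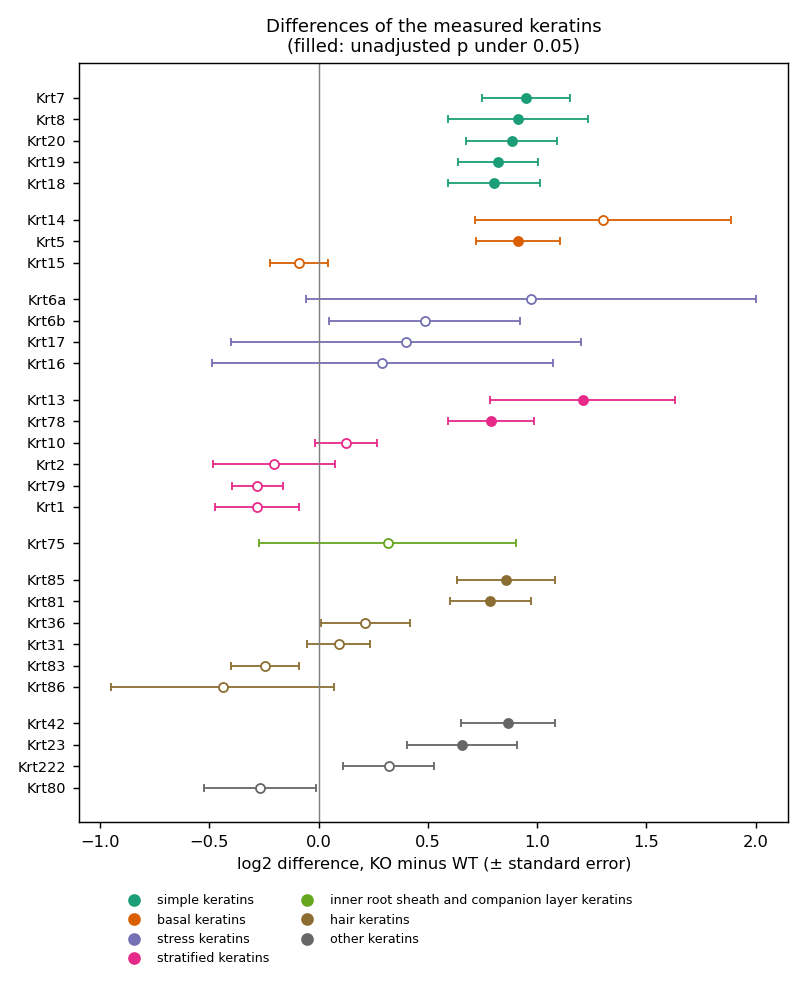
Log2 difference, KO minus WT (x axis), of each measured keratin (rows, coloured by class), with its standard error as a bar; a filled point has an unadjusted limma p under 0.05. The 5 simple keratins lie together between 0.80 and 0.95, whereas Krt6a, Krt16 and Krt17 have the longest bars, and stratified and hair keratins lie on both sides of 0.

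The simple keratins form the filaments of single-layered and ductal epithelia and of all urothelial layers. All 5 members were measured, all 5 were higher in KO ureters at an unadjusted p under 0.05, and their median difference was 0.88. Krt18, the type I partner of Krt8, read 7.05, 7.22 and 6.61 in KO ureters, against 6.15, 5.89 and 6.43 in WT ureters. Every KO value lay above every WT value, by a mean of 0.80 ± 0.21 (SE; limma, adjusted p = 0.445). Krt8, the type II partner, read 6.71, 7.11 and 6.36 in KO ureters, against 5.30, 5.76 and 6.39 in WT ureters. Its difference was 0.91 ± 0.32 (limma, adjusted p = 0.498). Here the groups touched, since KO replicate 3 lay just under WT replicate 3. A second Krt8 probe gave 0.85.

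Krt7, a type II keratin of ducts and urothelium, read 5.04, 5.10 and 4.61 in KO ureters, against 3.93, 3.70 and 4.28 in WT ureters. The groups did not overlap and differed by 0.95 ± 0.20 (SE; limma, adjusted p = 0.418). Krt19, a type I keratin that lacks the usual tail domain, read 6.69, 6.75 and 6.42 in KO ureters, against 5.53, 5.76 and 6.11 in WT ureters. It differed by 0.82 ± 0.18, again with every KO value on top. Krt20, which marks the umbrella cells at the urothelial surface, read 4.47, 4.25 and 3.75 in KO ureters, against 3.27, 3.09 and 3.45 in WT ureters. The difference was 0.88 ± 0.21 without overlap (limma, adjusted p = 0.433). In all 5 simple keratins KO replicate 3 was the lowest KO array and WT replicate 3 the highest WT array.

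The probes for these genes lay in the 2 keratin clusters. Krt18 was read at chr15:101862341-101862400, Krt8 at chr15:101827214-101827273 and Krt7 at chr15:101253718-101253777 (mm9). Krt19 was read at chr11:100002392-100002451 and Krt20 at chr11:99289776-99289835. Of the 28 measured keratins with coordinates, 15 had their probe on chromosome 15, where type II keratins and Krt18 lie, and 13 on chromosome 11, where the other type I keratins lie. Of these, 6 on chromosome 15 and 5 on chromosome 11 were higher at an unadjusted p under 0.05.

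Basal keratins mark the cells that rest on the basement membrane. Krt5, the type II member of the pair, read 6.75, 6.75 and 6.56 in KO ureters, against 5.42, 5.78 and 6.12 in WT ureters. All KO values lay above all WT values, with a difference of 0.91 ± 0.19 (SE; limma, adjusted p = 0.418). Its probe lies at chr15:101537514-101537573 (mm9). Krt14, its type I partner, read 4.78, 5.78 and 5.18 in KO ureters, against 2.70, 4.19 and 4.95 in WT ureters. The mean difference was the largest of the 29 measured keratins at their compared probes, 1.30 ± 0.59, but the groups overlapped (limma, adjusted p = 0.574). WT replicate 1 was far below the other 2 WT arrays, and without it the difference was 0.67.

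Krt15, a basal keratin also known from the stem cells of the hair follicle bulge, had close values in both groups. It read 1.73, 1.93 and 1.80 in KO ureters, against 1.85, 1.77 and 2.12 in WT ureters. The groups were mixed and differed by -0.09 ± 0.13 (SE; limma, adjusted p = 0.864). Of the 3 basal keratins, 1 (Krt5) thus stood at an unadjusted p under 0.05.

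**Figure D2:**
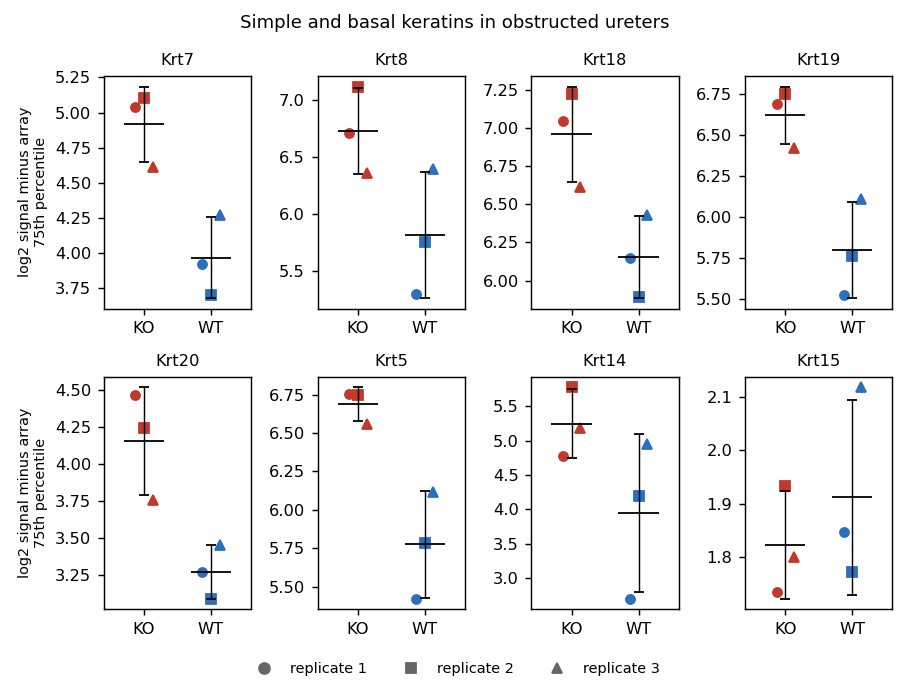
Log2 signal minus the array's 75th percentile (y axes, a scale for each gene) of the 5 simple and 3 basal keratins, with 1 point per array shaped by replicate number, the group mean as a line and 1 SD as a bar (n = 3). KO points lie above WT points without overlap for Krt7, Krt18, Krt19, Krt20 and Krt5, while Krt8 and Krt14 touch or overlap and Krt15 is mixed.

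Stress keratins (Krt6a and Krt6b with Krt16 and Krt17) are known to be induced in wounded or hyperproliferative epithelium. All 4 were measured, all 4 had a positive difference, and none stood at an unadjusted p under 0.05. Krt6a read 2.45, 3.82 and 2.88 in KO ureters, against -0.33, 2.97 and 3.60 in WT ureters. The difference of 0.97 ± 1.03 was smaller than its error (SE; limma, adjusted p = 0.807), and without WT replicate 1 it was -0.23. Krt16, a type I partner of Krt6a, read -0.31, 1.35 and 0.06 in KO ureters, against -1.44, 0.24 and 1.43 in WT ureters. It differed by 0.29 ± 0.78, with the groups fully mixed, and by -0.46 without WT replicate 1 and -0.20 without KO replicate 2.

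Krt17, a type I keratin of skin appendages and wounds, read -1.28, 0.94 and -1.44 in KO ureters, against -2.26, -0.40 and -0.31 in WT ureters. Here KO replicate 2 alone lay above the WT arrays, and the difference was 0.40 ± 0.80 (SE; limma, adjusted p = 0.909). It was -0.23 without WT replicate 1 and -0.37 without KO replicate 2. Krt6b, a near copy of Krt6a whose probe is not among the close pairs given further on, read -2.99, -2.74 and -3.44 in KO ureters, against -4.51, -3.22 and -2.89 in WT ureters, a difference of 0.49 ± 0.44. Krt75, a type II keratin of the hair follicle's companion layer and the 1 measured member of the 9 inner root sheath and companion layer keratins, read -3.02, -2.27 and -3.25 in KO ureters, against -4.49, -2.57 and -2.44 in WT ureters. It differed by 0.32 ± 0.59. Without WT replicate 1 the differences were -0.00082 for Krt6b and -0.35 for Krt75.

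Within groups, several of these keratins were spread widely. In WT ureters the highest and lowest array were more than 1 apart, over 2-fold, for 9 of the 29 measured keratins (Krt6a, Krt6b, Krt8, Krt13, Krt14, Krt16, Krt17, Krt75 and Krt86), against 10.7% of all genes. In all 9 the lowest WT array was replicate 1, as it was in 953 of the 2381 genes of the whole array with such a spread (40.03%). In KO ureters 3 keratins had such a spread (Krt6a, Krt16 and Krt17), against 7.5% of all genes, and KO replicate 2 was the highest KO array in each. The mean of the 4 stress keratins was -0.53, 0.85 and -0.48 in KO ureters, and -2.13, -0.10 and 0.46 in WT ureters. The mean of the 5 uroplakin genes, which mark umbrella cells, ran another way in WT ureters, at 3.82, 2.07 and 2.60, and was 4.40, 3.65 and 3.13 in KO ureters. Whether the make-up of the samples has a part in the spread of stress keratins was not tested.

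**Figure D3:**
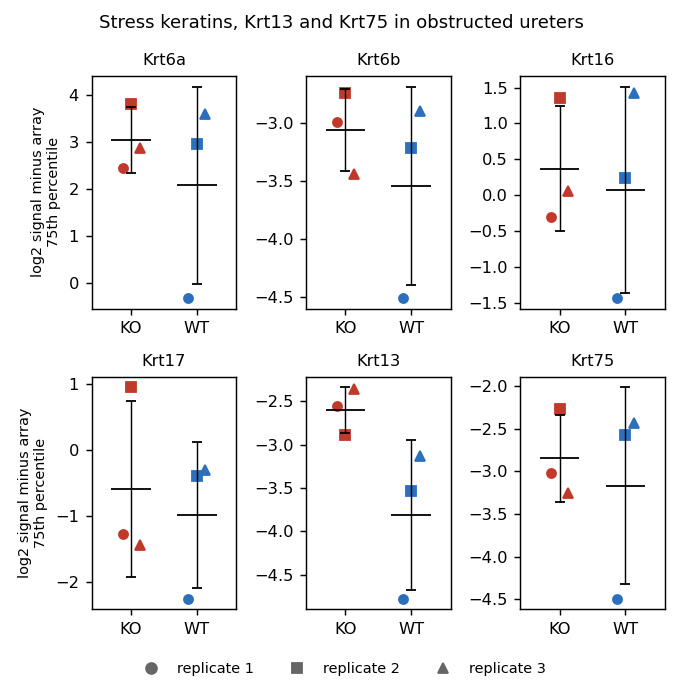
Log2 signal minus the array's 75th percentile (y axes, a scale for each gene) of the 4 stress keratins, Krt13 and Krt75, with 1 point per array shaped by replicate number, the group mean as a line and 1 SD as a bar (n = 3). WT replicate 1 is the lowest point of all 6 arrays in each panel, and KO replicate 2 is the highest KO point in each panel but that of Krt13.

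Stratified keratins belong to multilayered epithelia such as epidermis, oesophagus and cornea. Of 12 on the array, 6 were measured; their median difference was -0.04. Krt13, the type I keratin of the upper layers of internal stratified epithelia and also known from urothelium, read -2.56, -2.89 and -2.36 in KO ureters, against -4.78, -3.53 and -3.13 in WT ureters. The groups did not overlap and differed by 1.21 ± 0.42 (SE; limma, adjusted p = 0.498). Its size varied with the setting, at 0.73 without WT replicate 1 and at 0.27 when background was corrected by normexp. A second probe of Krt13 differed by 0.79.

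Krt78, a type II keratin of stratified epithelium, read -2.85, -2.55 and -2.58 in KO ureters, against -3.10, -3.79 and -3.46 in WT ureters. It differed by 0.79 ± 0.20 without overlap (SE; limma, adjusted p = 0.438), and by 0.18 with normexp. Krt79, known in mouse from the upper hair follicle and sebaceous duct, was the 1 keratin with every KO value below every WT value. It read 0.66, 0.88 and 0.82 in KO ureters, against 1.21, 1.02 and 0.97 in WT ureters, a difference of -0.28 ± 0.12 (limma, adjusted p = 0.554). The epidermal keratins Krt10 (0.13 ± 0.14), Krt2 (-0.20 ± 0.28) and Krt1 (-0.28 ± 0.19) were mixed between groups. Krt1 was well above background on 5 of 6 arrays and was kept through the WT group.

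Hair keratins build the hardened cells of hair and nail. Of 17 on the array, 6 were measured, with a median difference of 0.15. Krt85, a type II keratin of the hair matrix, read 3.64, 3.88 and 3.24 in KO ureters, against 2.52, 2.59 and 3.08 in WT ureters. The groups did not overlap and differed by 0.86 ± 0.22 (SE; limma, adjusted p = 0.445). Krt81, a type II keratin of the hair cortex, read 0.28, 0.28 and -0.21 in KO ureters, against -0.79, -0.80 and -0.43 in WT ureters. It differed by 0.79 ± 0.19, also without overlap (limma, adjusted p = 0.434). The other 4 overlapped between groups: Krt36 differed by 0.21, Krt31 by 0.09, Krt83 by -0.25 and Krt86 by -0.44. With 1 array left out, Krt86 ranged between -0.97 (without WT replicate 1) and -0.024 (without WT replicate 2, the array with kidney transcripts), Krt36 between 0.11 and 0.42, Krt83 between -0.39 and -0.17 and Krt31 between 0.024 and 0.22.

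Genes of epidermis and hair outside the keratins were examined beside these. Of 10 on the list 6 were measured and 4 were higher, while Flg (-0.26) and Cdsn (-0.01) were lower. At an unadjusted p under 0.05, 1 was higher (Lor, a cornified envelope protein, 0.83, with overlapping groups), where 4.35% of all genes were so. Their mean was -2.07, -1.90 and -2.60 in KO ureters, and -2.46, -2.48 and -2.61 in WT ureters. Tchh, trichohyalin of the hair's inner root sheath, read a mean of -3.46 in KO and -3.80 in WT ureters.

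Probes of related keratins can read like sequence. All 2346 pairs of the 69 keratin probes, each 60 bases long, were aligned without gaps, and pairs were kept that shared at least 75% of bases over a stretch of 20 or more. The closest pair was Krt81 with Krt87, another type II hair keratin, which shared 51 of 55 bases (92.7%). No array had Krt87 well above background. The Krt81 probe lies at chr15:101290583-101290642 and the Krt87 probe at chr15:101263556-101263615 (mm9). The probes of Krt81 and Krt85 were also among the pairs kept, so the 2 hair keratins without overlap between groups were read by like probes and are not separate evidence. How far they also bind transcripts of other type II keratins was not tested.

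The keratins outside these classes had 4 measured members of 5. Krt42, a type I keratin known in mouse from the nail, read 4.41, 4.63 and 4.16 in KO ureters, against 3.22, 3.45 and 3.92 in WT ureters. It differed by 0.87 ± 0.22 without overlap (SE; limma, adjusted p = 0.438). A second Krt42 probe stayed near background on all arrays, reading -7.22 to -7.08. The brighter probe lies at chr11:100128252-100128311 (mm9) and its sequence is shown with that of Krt24, a type I keratin of stratified epithelium, which was not well above background. Capitals in the Krt24 probe mark the 21 bases of 25 (84.0%) that match the start of the Krt42 probe.
Krt42: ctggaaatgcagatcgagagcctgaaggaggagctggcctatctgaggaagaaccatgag
Krt24: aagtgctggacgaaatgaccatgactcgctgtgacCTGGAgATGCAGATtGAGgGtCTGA
Binding of the Krt42 probe to transcripts of other type I keratins was not tested. Krt23, a type I keratin known as stress-responsive in mouse liver, read 1.99, 1.38 and 1.52 in KO ureters, against 0.95, 0.59 and 1.39 in WT ureters. WT replicate 3 reached into the KO range, and the difference was 0.66 ± 0.25 (SE; limma, adjusted p = 0.527). Krt222 differed by 0.32 ± 0.21 and Krt80, a type II keratin of many epithelia, by -0.27 ± 0.26. The 2 measured probes of Krt80 differed in sign, the dimmer giving 0.10, whereas those of Krt8, Krt13 and Krt16 had 1 sign each.

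The remaining 26 keratins were not measured, and no test is given for them. They were Krt12, Krt24, Krt4, Krt76, Krt77 and Krt9 of the stratified class; Krt25, Krt26, Krt27, Krt28, Krt71, Krt72, Krt73 and Krt74 of the inner root sheath; Krt32, Krt33a, Krt33b, Krt34, Krt35, Krt39, Krt40, Krt82, Krt84, Krt87 and Krt88 of hair; and Krt90. Krt28 was well above background on 1 KO array and 2 WT arrays, Krt4 on 1 KO array and Krt9 on 1 WT array. Krt12 was so on 2 KO arrays, and the other 22 on none.

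Proteins that tie keratin filaments to desmosomes or hemidesmosomes, or that bind keratins, were read from a list of 14, chosen with earlier results known. All were measured, 13 were higher in KO ureters, 6 stood at an unadjusted p under 0.05 and in the same number the groups did not overlap, where 4.35% and 7.28% of all genes were so. The median difference was 0.62. Those 6 were Dsp (0.87 ± 0.24) and Ppl (1.20 ± 0.29), plakins that bind filaments, Jup (0.53 ± 0.17) and Pkp3 (0.65 ± 0.15), desmosomal plaque proteins, and Fam83h (0.69 ± 0.17) and Pof1b (0.77 ± 0.20), which associate with keratin or desmosomes. Of the other members, the hemidesmosomal linkers Plec and Dst differed by 0.17 ± 0.16 and 0.11 ± 0.14, and the desmosomal Pkp2 by 0.12 ± 0.18. They are named outside the naming rule, with their values known. Intermediate filament genes other than keratins gave other counts. Of 11 measured, 6 were higher, 0 stood at an unadjusted p under 0.05, and the median was 0.01. The 3 with the lowest p were Des of muscle (0.74 ± 0.40), Nefm of neurons (-0.55 ± 0.39) and Lmnb2 of the nuclear lamina (-0.21 ± 0.16), all at a limma adjusted p of at least 0.625.

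Epithelial genes outside the family were set beside the keratins, because bulk RNA cannot tell fewer cells of a type from less RNA per cell. The list was chosen with earlier results of these data known, so its counts are a description only. Of 14 such genes all were higher in KO ureters, 10 at an unadjusted p under 0.05 and 8 without overlap, where 4.35% and 7.28% of all genes were so, with a median difference of 0.67. Among them Rab25, a vesicle transport gene of epithelium, differed by 1.08 ± 0.24 and Grhl2, an epithelial transcription factor, by 0.80 ± 0.18. Their mean was 0.66, 0.81 and 0.32 in KO ureters, and -0.16, -0.24 and 0.08 in WT ureters, so the order of arrays was like that of the simple keratins, with KO replicate 3 lowest in its group and WT replicate 3 highest. The 5 uroplakins had a median of 0.89 with 1 (Upk3b, 1.04) at that p and all overlapping.

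Markers of other tissues also varied between arrays. The 7 smooth muscle genes were all higher, with a median of 0.68 and none at an unadjusted p under 0.05, and their mean was 5.37, 5.15 and 4.52 in KO ureters, and 4.85, 3.94 and 4.56 in WT ureters. The 4 measured mesothelial genes of 6 all had a positive difference (median 0.81), but they ranged from Wt1 at 0.009 ± 0.37 to Msln at 1.48 ± 0.35. Only Msln, 1 gene, stood at an unadjusted p under 0.05 and without overlap, where 4.35% and 7.28% of all genes were so. The leukocyte list of 8 had a median of -0.28, with 3 higher, 2 lower at an unadjusted p under 0.05 and 2 with all KO values below all WT values, where 4.71% and 8.13% of all genes were so. These were the macrophage genes Adgre1 (-0.89 ± 0.21, both), Cd68 (-0.84 ± 0.29, by p) and Csf1r (-0.52 ± 0.22, by overlap), and Adgre1 is named here with its values known. S100a9, brighter than Adgre1 and 1 of the 3 higher members, differed by 0.44 ± 0.79 with overlapping groups. The fibroblast list of 7 had a median of -0.08 and the endothelial list of 6 one of 0.03, both with 0 members at an unadjusted limma p under 0.05. The part of cell make-up in the keratin differences was not tested. The centring that follows takes off every array a mean of genes that were all higher in KO ureters. It cannot tell more epithelial cells from more RNA per cell.

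When each array was centred on the mean of the 14 epithelial genes in place of its 75th percentile, the median of all genes moved to -0.70, so values are read against that. The simple keratins then differed by 0.10 (Krt18) to 0.25 (Krt7), Krt5 by 0.21 and Krt14 by 0.60, all positive. None of them stood at an unadjusted p under 0.05, where 0.19% of all genes were higher at that p. Only Krt7 and Krt20 kept all KO values above all WT values, as did 0.16% of all genes. Krt15 differed by -0.79 and Krt79 by -0.98 (limma, adjusted p = 0.0329 for each), near or past the shift of all genes. Under this centring 14192 of 22260 genes passed the adjusted threshold and 8 keratins did so, all lower in KO ureters.

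**Figure D4:**
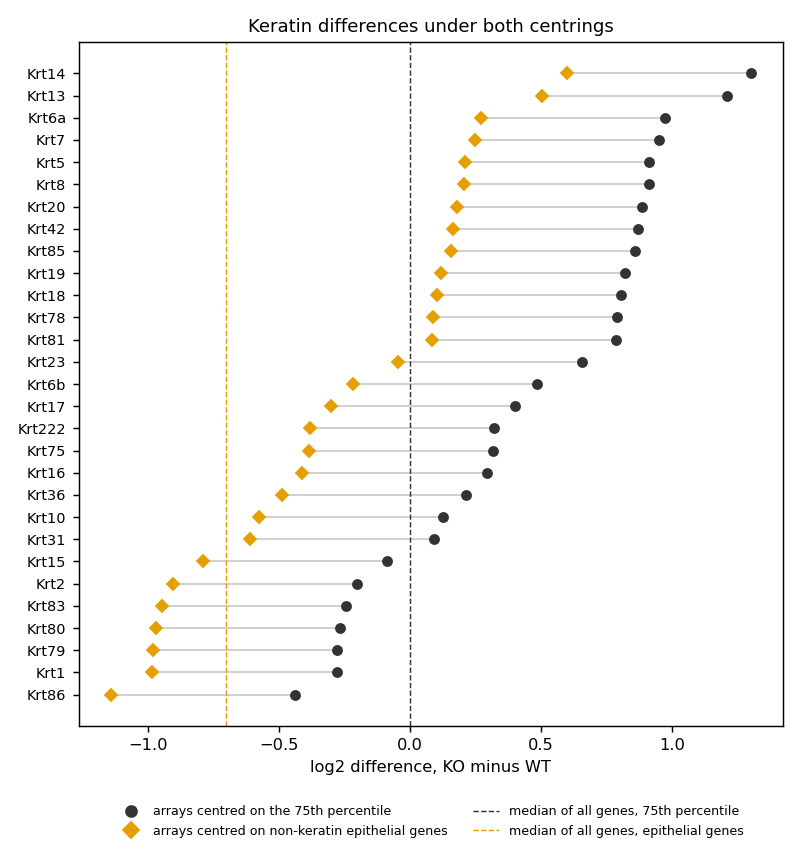
Log2 difference, KO minus WT (x axis), of each measured keratin (rows) with arrays centred on the 75th percentile (circles) or on 14 non-keratin epithelial genes (diamonds); dashed lines give the median of all genes under each. With the epithelial centring the simple keratins lie between 0.10 and 0.25, and all genes shift to a median of -0.70.

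Start regions are shown as examples for 3 keratins whose groups did not overlap, 1 each of the basal, ductal and umbrella cell kind. Each is the 250 bases before the start in RefSeq (GRCm38.p6), read along the gene's strand. Krt5 lies on the minus strand at chr15:101712906-101713155, Krt7 on the plus strand at chr15:101412153-101412402 and Krt20 on the minus strand at chr11:99438154-99438403. Capitals mark ATAAA 29 bases before the start in Krt5 and the Sp1 motif GGGCGG or its reverse complement at 4 places in Krt7. In Krt20 they mark TATAAA 29 bases before the start and the GATA motif AGATAA as its reverse complement. Krt7 also has ATAAA, left in lower case because it lies nearer the start than the window described below.
Krt5: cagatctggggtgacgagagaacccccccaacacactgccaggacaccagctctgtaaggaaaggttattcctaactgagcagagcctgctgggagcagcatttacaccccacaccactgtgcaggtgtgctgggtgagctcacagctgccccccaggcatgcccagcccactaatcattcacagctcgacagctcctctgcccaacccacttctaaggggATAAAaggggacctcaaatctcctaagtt
Krt7: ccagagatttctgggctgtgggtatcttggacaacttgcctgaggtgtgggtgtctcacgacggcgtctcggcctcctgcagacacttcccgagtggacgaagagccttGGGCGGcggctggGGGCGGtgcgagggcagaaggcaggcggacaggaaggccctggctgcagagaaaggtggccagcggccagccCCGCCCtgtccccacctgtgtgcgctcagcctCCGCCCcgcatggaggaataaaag
Krt20: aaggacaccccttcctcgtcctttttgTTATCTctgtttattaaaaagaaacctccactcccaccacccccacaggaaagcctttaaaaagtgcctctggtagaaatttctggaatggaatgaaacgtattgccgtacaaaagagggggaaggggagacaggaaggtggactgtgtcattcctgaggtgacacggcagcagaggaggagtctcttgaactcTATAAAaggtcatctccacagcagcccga
Of the 29 measured keratins 16 had such a region in the table. On both strands, TATAAA was in 3 of the 16, against 12.4% of all 32851 regions, AGATAA in 4 against 9.99%, GGGCGG in 2 against 32.7%, CCAAT in 4 against 33.8% and the AP-1 motif TGANTCA in 1 against 6.75%. ATAAA on the gene's strand, starting 40 to 20 bases before the start, was in 8 (Krt5, Krt10, Krt13, Krt20, Krt23, Krt31, Krt75 and Krt78), against 4.25% of all; TATAAA overlaps it, and this window was chosen after the letters were seen. Of these 8, 5 (Krt5, Krt13, Krt20, Krt23 and Krt78) were among the keratins at an unadjusted p under 0.05 in the comparison, and among the 8 promoters without it 4 were. A match is a description of letters, not evidence of binding.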

How the data were processed

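Total RNA of 6 ureter samples was labelled with Cy3 and hybridised to 1-colour Agilent arrays, 1 per sample, per the labels' protocols. The deposited spot intensity values came from Agilent Feature Extraction 12.0.3.1, per the submitters' processing notes. All 6 arrays were on 1 slide with 1 scan time, per the file headers, so neither is a batch. Coordinates in the deposited files are mm9. How the authors normalised, if they did, is not recorded in these labels or headers.

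Of the deposited processed intensity, the log2 was taken and centred on each array's 75th percentile. Outlier spots were left out and spots of a probe averaged. Genes are named by RefSeq (35405 of 56605 probes matched; 21200 kept the file's name). Probes were kept if all arrays of 1 group or both had them well above background, with the brightest probe per gene. KO and WT were compared over 22260 genes with limma 3.58.1 in R 4.3.3 and Benjamini-Hochberg adjustment at 0.05, after the procedure was tested on simulated data. The smallest two-sided p of an exact permutation test of 3 against 3 arrays is 0.1. Labels number the samples and do not name the animals, so p-values measure only the spread between these 6 samples, which may be technical, and the number of arrays limits the precision.

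Every keratin and every gene of the epidermis and hair list may be named. Of the linker and filament lists, those at an unadjusted p under 0.05 (if none, the 3 with the lowest p) are named. Plec, Dst and Pkp2 are named besides, and of marker lists up to 3 members, with Adgre1 besides in the leukocyte list. The keratins, their classes and the other lists were chosen with earlier results of these data known. Alternatives covered background, normalisation, filter, probe choice, variance model, weights, sex, the replicate number as a block and left-out arrays. Same-numbered samples deviated together for number 1 (r = 0.53) but not for numbers 2 and 3 (r = -0.15 and -0.03), so the numbers were not taken as pairs. Some marker and probe results are not reported here.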

Additional observations from a re-analysis of the deposited data

Results flagged for a closer look

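Keratin probes outside the main comparison were flagged if well above background on at least 2 KO arrays and on 0 WT arrays. Probes of 2 keratins met this rule, which by itself picks KO values above WT values. The reverse was not searched, and the share of all probes meeting the rule was not counted. Of these probes, that of Krt12 entered only the alternative without a filter on dim probes. The brighter probe of Krt12, a keratin of the cornea, averaged -4.94 in KO ureters (-4.72, -5.02 and -5.07), against -6.37 in WT ureters (-7.28, -6.12 and -5.70). The dimmer probe of Krt75, a keratin of the hair follicle's companion layer, averaged -5.04 in KO ureters (-5.94, -4.49 and -4.69), against -6.49 in WT ureters (-7.27, -7.00 and -5.20). Neither was well above background on every array of a group, so no test or fold is given.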

How the results depend on the processing

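Of 18 alternatives, 16 left no keratin past the adjusted threshold. With limma's array weights, whose estimation stopped before converging, 1 passed (Krt78, 0.77, adjusted p = 0.0462) among 498 genes, and with arrays centred on non-keratin epithelium 8 passed. Apart from that centring, the count higher at an unadjusted p under 0.05 was 9 to 14, where it was 12 as reported. The share of all genes so was 2.41% (without KO replicate 1) to 13.4% (array weights, with 13 keratins), against 4.35% as reported. With the epithelial centring the count was 0, where 0.19% of all genes were so. The count lower was 0 as reported, 5 with array weights, 9 with the epithelial centring, 1 each with a trended robust variance, without a filter and with normexp, and 0 to 2 with 1 array left out. With the epithelial centring KO lay above WT in 2 keratins (0.16% of all genes) and below in 6. KO lay below in 2 without a filter and in 1 to 3 with 1 array left out. Shares of all genes lower or below are not given for these alternatives. The epithelial centring gave class medians of 0.18 (simple), -0.74 (stratified), -0.55 (hair) and -0.22 (other). The stress median turned sign, from 0.44 as reported to -0.26 with this centring, -0.40 with array weights and -0.23 without WT replicate 1. The stratified median was 0.21 with array weights and 0.13 with the stricter filter on dim probes, and with 1 array left out the hair median was 0.067 to 0.32. With the replicate number as a block, 0 keratins passed and 13 were higher at that p (4.89% of all genes). Each number holds 1 KO and 1 WT array, so this block could not move any difference or class median. The median over keratins was 0.26 with normexp, 0.24 with array weights and -0.22 with the epithelial centring, and 18 and 13 keratins were higher under these last 2 and 17 without WT replicate 1, against 22 as reported. Signs turned with the epithelial centring for Krt10 (-0.58), Krt16 (-0.41), Krt17 (-0.30), Krt222 (-0.38), Krt23 (-0.048), Krt31 (-0.61), Krt36 (-0.49), Krt6b (-0.22) and Krt75 (-0.39). They turned with array weights for Krt16 (-0.997), Krt17 (-0.28), Krt2 (0.20), Krt6a (-0.51), Krt6b (-0.021) and Krt75 (-0.34). Krt2 turned (0.066) when WT replicate 2 and KO replicate 3 were both left out. With 1 array left out, differences ran between -0.46 and 0.97 for Krt16, -0.37 and 0.82 for Krt17, -0.23 and 1.73 for Krt6a, -0.00082 and 0.81 for Krt6b, -0.35 and 0.68 for Krt75, and -0.16 and 0.014 for Krt15. For Krt6a, Krt6b and Krt75 the sign turned without WT replicate 1, for Krt16 and Krt17 without it or without KO replicate 2, and for Krt15 without WT replicate 3. The cause was not tested. Normexp moved Krt13 (0.27) and Krt78 (0.18) most, both dim.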
